A study of Mus musculus with 12 samples.

Results

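Activator protein 1 (AP-1) is a family of transcription factors, and 10 of its genes were followed here in 2 mouse RNA-seq experiments: *Fos*, *Fosb*, *Fosl1*, *Fosl2*, *Jun*, *Junb*, *Jund*, *Atf3*, *Batf* and *Maff*. They were chosen by gene symbol, matched to the Ensembl identifiers of the deposited counts, and all 10 were found among 55487 genes. The first experiment compared bone marrow macrophages (BMMs) of ovariectomized (OVX) and sham-operated mice, with 3 libraries of each. Ovariectomy removes the ovaries and with them most of the estrogen, and is a mouse model of postmenopausal bone loss. According to the methods the mice were female C57BL/6, were operated at 8 weeks of age, which is also the age in the sample labels, and gave marrow cells that were cultured with macrophage colony-stimulating factor. The second experiment held bone marrow mesenchymal stem cells (MSCs) cultured alone (MSC), MSCs grown together with RAW264.7 cells (MSC+RAW), and MSCs grown together with RAW264.7 cells that had received lipopolysaccharide (MSC+RAW-LPS), with 2 libraries of each. Whether a membrane separated the cells sequenced here is not given in the sources used here. RAW264.7 is a mouse macrophage cell line, and lipopolysaccharide (LPS) is a bacterial cell wall component that activates macrophages. The MSCs came from C57BL/6 mice, with an age of 8 weeks in the labels, and were the adherent cells of limb bone marrow. The MSC+RAW and MSC+RAW-LPS columns carry no replicate numbers that match the labels, so their libraries are called a and b here.

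AP-1 proteins share a basic leucine zipper (bZIP), with which they pair and bind DNA. JUN proteins pair with themselves or with FOS proteins, while ATF3, BATF and the small MAF protein MAFF join the same network with other partners and binding preferences. Many of these genes are immediate-early genes, whose transcripts rise and fall quickly after growth factors, stress or inflammatory signals reach the cell through MAP kinases. FOS is needed to form osteoclasts, the bone-resorbing cells that arise from macrophage precursors, and FOSL1, FOSL2 and JUNB take part in bone formation.

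AP-1 proteins bind the TPA response element (TRE, TGACTCA) and the cAMP response element (CRE, TGACGTCA). These letters, the variant TGACATCA and the CRE core TGACGT, which also lies within the CRE, were searched on both strands in the 250 bases before each RefSeq start site of GRCm38.p6. RefSeq gave 11 such windows for 9 of the 10 genes, all but *Fosl1*. Among all 32841 mouse promoters, 4.46% held the TRE, 1.55% the CRE, 2.93% the variant and 6.47% the CRE core. No window of the 9 genes held the TRE. The windows of *Fos*, *Jun*, *Batf* and the second start site of *Maff* are shown, as an example each of the FOS, JUN, BATF and MAF genes, because they hold a match, given in capitals. They lie on the strand of the gene at chr12:85473640-85473889 (*Fos*, plus strand), chr4:95052223-95052472 (*Jun*, minus strand), chr12:85686470-85686668 (*Batf*, plus strand, ended before the first annotated exon) and chr15:79347270-79347519 (*Maff*, plus strand).
Fos: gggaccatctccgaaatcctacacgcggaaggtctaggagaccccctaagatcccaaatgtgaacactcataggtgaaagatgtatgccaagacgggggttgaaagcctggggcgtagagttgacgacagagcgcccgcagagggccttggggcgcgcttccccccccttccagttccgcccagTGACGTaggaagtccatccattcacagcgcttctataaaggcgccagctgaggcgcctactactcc
Jun: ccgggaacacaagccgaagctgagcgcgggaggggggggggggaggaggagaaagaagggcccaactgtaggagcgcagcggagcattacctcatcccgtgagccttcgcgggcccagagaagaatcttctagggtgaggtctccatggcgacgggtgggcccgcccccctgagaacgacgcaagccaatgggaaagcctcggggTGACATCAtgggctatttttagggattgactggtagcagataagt
Batf: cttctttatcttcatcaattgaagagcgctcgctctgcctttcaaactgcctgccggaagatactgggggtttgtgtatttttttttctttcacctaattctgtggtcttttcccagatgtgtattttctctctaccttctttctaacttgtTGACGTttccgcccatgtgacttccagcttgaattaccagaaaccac
Maff: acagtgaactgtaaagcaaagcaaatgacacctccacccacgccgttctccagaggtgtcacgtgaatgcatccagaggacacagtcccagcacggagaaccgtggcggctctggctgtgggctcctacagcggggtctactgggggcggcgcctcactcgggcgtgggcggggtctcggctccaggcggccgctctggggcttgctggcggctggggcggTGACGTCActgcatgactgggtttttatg

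Counted from the start site, the match began at -66 in *Fos*, -45 in *Jun*, -98 in *Batf* and -29 in *Maff*. *Fos* and *Batf*, which lie near each other on chromosome 12, each held the CRE core. *Jun* held the variant, and *Maff* held the full CRE. The CRE core also stood in the window of *Atf3* on the opposite strand at -8, and the variant at the last start site of *Maff* at -45. No match was found for *Fosb*, *Fosl2*, *Junb* or *Jund* in these windows. The *Jund* window ends at base 70697738 of chromosome 8 and the counted gene starts at 70698949, so the bases next to that start were not searched. The *Fosl2* window lies inside the counted gene. A further feature shared by the genes was base composition. Their exons held from 51.9% G and C in *Fos* to 67.1% in *Jund*, which placed them between the 75.3rd and 99.5th percentile of all annotated genes.

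The libraries held 17012923 to 45367105 counts, and levels are given as CPM, the counts of a gene scaled to a fixed library total and adjusted by TMM factors. Sham replicates 2 and 3, and both MSC+RAW libraries, were near-identical. The chi-square between their counts over its expectation was 3.09 and 3.34 in genes of high count, against 30.5 to 269 in the other pairs. Each such pair was therefore summed and counted as 1 sample, which left 2 sham samples and 1 MSC+RAW sample. The spread of the lone MSC+RAW sample is assumed to be that of the other MSC groups. The labels do not say which libraries came from separate animals or cultures, so p-values measure the spread between these samples, which may in part be technical. All 15 macrophage markers reached 1 CPM in every library, the MSC libraries included, where their sum was 31217 to 31391 CPM. Stromal markers were also present in both experiments, with *Col1a1* at 453 to 460.0 CPM in MSC and 1921 to 2057 CPM in sham. In the MSC libraries the stromal markers summed to 2923 to 3101 CPM, below their own macrophage sum and below the stromal sum of 7532 to 8389 CPM in the BMM libraries. These markers go against reading the MSC libraries as stromal cells alone, and the group names here only follow the labels. In bulk RNA fewer cells of a type cannot be told apart from less RNA per cell. The libraries also differed in how gene level moved with GC content. Spearman's rho across genes between GC content and relative level was -0.57 to -0.32 in OVX, 0.20 to 0.48 in sham, -0.28 to -0.22 in MSC, 0.35 to 0.36 in MSC+RAW and -0.26 to -0.12 in MSC+RAW-LPS.

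In BMMs the most abundant AP-1 transcripts per length were *Fos*, *Junb* and *Jund*. In OVX they stood at 98.0, 73.3 and 41.9 CPM per kb of exon. In sham the order was *Junb*, *Jund* and *Fos*, at 95.9, 80.2 and 71.4 CPM per kb. *Fosb* and *Fosl1* were the lowest in both groups, at or below 0.906 CPM per kb. The 10 genes summed to 299 CPM per kb in OVX and 390 in sham. *Fos* made up 32.8% of this sum in OVX and 18.3% in sham, whereas *Batf* made up 4.10% and 13.2%. These levels carry no correction for GC content, whose trend had opposite signs in OVX and sham. Its part in the sums and shares was not tested.

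**Figure D1:**
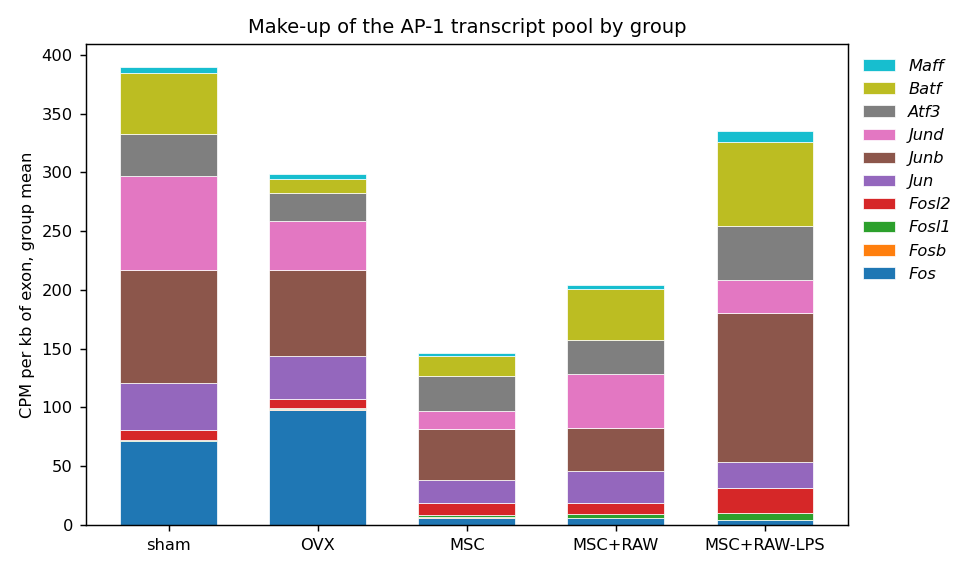
Stacked bars give the mean level of each AP-1 gene in CPM per kb of exon in the 5 groups, without correction for GC content. *Fos* is the largest segment in OVX and a thin one in the MSC groups, and the *Batf* and *Junb* segments are widest in MSC+RAW-LPS.

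OVX and sham BMMs were compared to see which AP-1 genes differ in macrophages after estrogen loss. All 10 genes passed the filter on low counts in both experiments. Calls required a change of 2-fold or more together with a Benjamini-Hochberg adjusted p no higher than 0.05 over all genes tested. *Batf* fell and *Fosb* rose in OVX, so that 2 of the 10 genes were called, against 8.46% of all 16768 genes tested, 5.39% being called higher and 3.08% lower. The median log2 fold change of the 10 genes was -0.26, and that of all genes was -0.01. With GC and length trends removed, *Jun* (0.24), *Junb* (0.10) and *Maff* (0.11) turned positive, so the negative sign of the median does not hold in that fit.

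*Batf* encodes a bZIP protein that lacks a transactivation domain and pairs with JUN proteins and interferon regulatory factors. Its level was 14.95, 19.5 and 17.3 CPM in OVX replicates 1 to 3, and 63.6, 82.0 and 79.9 CPM in sham. Every OVX library lay below every sham library, with means of 17.2 ± 2.25 CPM (SD, n = 3) and 72.3 ± 12.2 CPM (SD, n = 2). The difference was 4.21-fold (log2 fold change -2.07, SE 0.20, adjusted p = 0.00301), and 120 of the 16768 genes had a lower log2 fold change. *Atf3*, a stress-induced bZIP gene, stood at 51.3, 49.7 and 51.1 CPM in OVX and 83.6, 72.8 and 68.1 CPM in sham. Those groups did not overlap, but its log2 fold change of -0.61 (SE 0.17) was under 2-fold and missed the threshold (adjusted p = 0.0529). *Maff*, a small MAF gene without a transactivation domain, overlapped between the groups, at 10.02 to 12.6 CPM in OVX and 10.99 to 16.2 CPM in sham.

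Among the FOS genes, *Fosb* was at 3.59, 6.22 and 7.16 CPM in OVX and 1.65, 2.85 and 2.52 CPM in sham. Its groups did not overlap, and its log2 fold change was 1.39 (SE 0.38, adjusted p = 0.0494). That p lay just inside the threshold and was 0.0504 with RLE scaling. It ran from 0.0531 to 0.159 without OVX replicate 1, 2 or 3, sham replicate 1 or sham replicate 3, each left out alone. *Fos* stood at 235, 250.1 and 207 CPM in OVX and 157, 177 and 180.0 CPM in sham. All OVX values lay above all sham values, but the log2 fold change of 0.45 (SE 0.18) was not called (adjusted p = 0.142). *Fosl2* was at 72.9 to 75.7 CPM in OVX and 78.5 to 92.9 CPM in sham, with a log2 fold change of -0.21 (SE 0.17, adjusted p = 0.440). *Fosl1* stayed below 1 CPM in all 6 libraries, with 63 counts in all. It overlaps *Ccdc85b* on the opposite strand, which had 5485 counts, and the strand setting of the counting is not stated, so the *Fosl1* level in BMMs is uncertain.

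The JUN genes encode the partners of FOS proteins, with JUNB and JUND weaker activators than JUN. *Jun* was at 104, 109 and 137 CPM in OVX and 116, 139 and 141 CPM in sham, and the groups overlapped (log2 fold change -0.14, SE 0.20, adjusted p = 0.678). *Junb* was at 131, 131 and 137 CPM in OVX and 169, 182 and 175 CPM in sham. The groups did not overlap, but the log2 fold change of -0.39 (SE 0.17) was not called (adjusted p = 0.155). *Jund* stood at 48.6, 71.8 and 89.0 CPM in OVX and 110, 154 and 162 CPM in sham. It was lower in every OVX library and missed the threshold, with a log2 fold change of -0.95 (SE 0.28, adjusted p = 0.0591). With all 6 libraries entered as separate samples it was called, at -1.02 (adjusted p = 0.0173), as it was without OVX replicate 3 (-1.16) or sham replicate 1 (-1.19). *Jund* is the most GC-rich of the 10 genes, and its levels had the same order over the 6 libraries as their GC trend, from OVX replicate 1 (rho -0.57) to sham replicate 3 (rho 0.48). The part of GC content in the *Jund* difference was not tested further, and with GC and length trends removed the log2 fold change was -0.43 (adjusted p = 0.260).

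**Figure D2:**
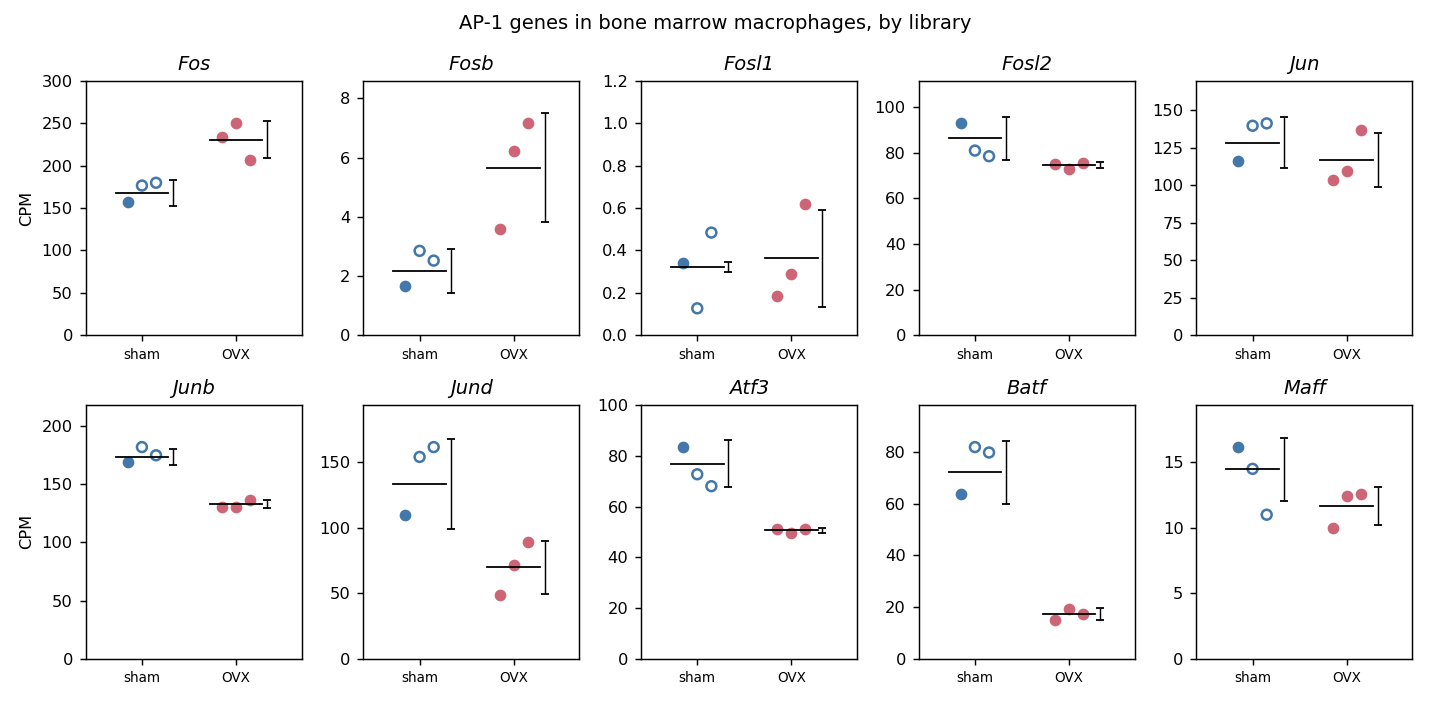
Level of the 10 AP-1 genes in CPM in each sham and OVX library of BMMs (points), with the group mean (line) and SD (bar at the right). Open points mark sham replicates 2 and 3, whose mean counts as 1 sample; *Batf* shows the widest gap, with OVX at 14.95 to 19.5 CPM and sham at 63.6 to 82.0 CPM.

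The summed macrophage markers were 46546 to 50972 CPM in OVX and 63627 to 68113 CPM in sham, with none of the 15 at 0. *Lyz2* carried most of the sum, at 36091 to 40414 CPM in OVX and 48286 to 51842 CPM in sham. Of the 15 markers 11 were lower in every OVX library than in every sham library and 2 were higher, *Mrc1* (175 to 250 against 49.6 to 50.7 CPM) and *Ptprc* (105 to 159 against 71.5 to 87.3 CPM). Neutrophil markers summed to 1197 to 1329 CPM in OVX and 811 to 943 CPM in sham, and of these 8 genes 5 were higher in every OVX library and 1, *Mpo*, was lower. The part of these cell types in the AP-1 differences was not tested.

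Of 17 other bZIP genes tested in OVX, 2 were called, both lower, and these were close relatives of *Batf*. The count was 1 without OVX replicate 2 and 1 with GC and length trends removed. *Batf3* was at 3.79 ± 0.533 CPM (SD, n = 3) in OVX and 19.2 ± 1.52 CPM (SD, n = 2) in sham (log2 fold change -2.35, SE 0.22, adjusted p = 0.00272). *Batf2*, chosen after its values were seen, was at 1.55 and 4.77 CPM (log2 fold change -1.62, adjusted p = 0.0122). Among 16 textbook AP-1 target genes, 5 were called, all lower, beside the 3.08% of all genes called lower. *Mmp3*, a matrix-degrading protease, had 8.25 CPM in OVX and 113 CPM in sham (log2 fold change -3.79, SE 0.18, adjusted p = 0.00015). *Mmp9*, another such protease, had 54.0 and 176 CPM (log2 fold change -1.72, adjusted p = 0.00301). *Acp5*, the tartrate-resistant acid phosphatase of osteoclasts, had 166 and 385 CPM (log2 fold change -1.22, adjusted p = 0.0123). The other 2 were *Hmox1* and *Tnf*, named after their values were seen, with log2 fold changes of -1.13 and -1.19. By qPCR the paper reported *Tnf* higher in OVX than in sham macrophages, which is the other direction. The median of the list was -0.46. Without OVX replicate 2, 2 of the 16 target genes were called.

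Calls among the signalling genes upstream in OVX stood beside the 8.46% of all genes called. Of 21 MAP kinase cascade genes, 2 rose, namely *Mapk8*, the kinase JNK1 (log2 fold change 1.19, adjusted p = 0.0394), and *Rps6ka3*, the kinase RSK2 (1.09, adjusted p = 0.0346). Neither was called with GC and length trends removed, at 0.36 and 0.34. Of 14 feedback inhibitors of MAP kinases, the phosphatase *Dusp14* rose (1.08, adjusted p = 0.0244) and *Dusp2* fell (-1.05, adjusted p = 0.0151). Of 20 other immediate-early genes, *Egr2* (1.23, adjusted p = 0.0192) and the secreted *Ccn1* (1.42, adjusted p = 0.00868) rose. *Ccn1* stood at 398 ± 69.0 CPM (SD, n = 3) in OVX and 148 ± 19.9 CPM (SD, n = 2) in sham. Of 10 heat shock genes, *Hsp90aa1* rose (1.52, adjusted p = 0.0212) and the remaining 9 were not called. Among the MAP kinase cascade genes 5 were called without sham replicate 1, and among the other immediate-early genes and the other bZIP genes 4 each. Without OVX replicate 1 the calls of *Acp5*, *Dusp2*, *Dusp14*, *Egr2*, *Mapk8* and *Rps6ka3* were lost. Without OVX replicate 2 the same genes and *Hsp90aa1* had adjusted p-values of 0.0719 to 0.120, and *Dusp14* also missed the threshold without OVX replicate 3 (adjusted p = 0.0562). *Acp5* (-0.81), *Dusp2* (-0.60) and *Hsp90aa1* (1.13, adjusted p = 0.115) were not called with the GC and length trends removed.

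In the MSC experiment the AP-1 pool had another make-up. *Fos* was at 7.95 to 17.4 CPM in these 6 libraries, and BMMs, which were counted and scaled separately, had 157 to 250.1 CPM. Per length, *Junb* was the most abundant in MSC at 43.2 CPM per kb, *Jund* in MSC+RAW at 45.3, and *Junb* again in MSC+RAW-LPS at 127. *Atf3* and *Batf* followed in MSC at 30.03 and 17.2 CPM per kb, with *Jun* between them at 19.3. The sum over the 10 genes was 147 CPM per kb in MSC, 204 in MSC+RAW and 335 in MSC+RAW-LPS. These levels also carry no correction for GC content.

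MSC+RAW-LPS was compared with MSC to see how MSCs co-cultured with activated macrophages differ from the libraries labelled as MSCs alone. Here 5 of the 10 genes were called, all higher, against 10.9% of the 20499 genes tested with 5.85% called higher and 5.09% lower. They were *Batf*, *Maff*, *Fosl1*, *Junb* and *Fosl2*. A further 2, *Jund* and *Atf3*, passed the adjusted p below 2-fold. The median log2 fold change was 0.94 over the 10 genes and -0.01 over all genes.

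*Junb* had 71.2 and 85.0 CPM in MSC replicates 1 and 2, 67.3 and 67.7 CPM in MSC+RAW a and b, and 220.4 and 238 CPM in MSC+RAW-LPS a and b. The LPS libraries lay apart from all others, and the rise over MSC was 2.94-fold (log2 fold change 1.56, SE 0.16, adjusted p = 2.21e-06). *Fosl2* had the same pattern, with 99.4 and 103 CPM in MSC, 95.7 and 92.3 CPM in MSC+RAW, and 193 and 221 CPM in MSC+RAW-LPS. Its rise of 2.05-fold (log2 fold change 1.03, SE 0.15, adjusted p = 9.86e-05) lay close to the fold limit, and was 0.94 on the log2 scale without MSC+RAW-LPS b. *Fosl1*, a FOS gene without a transactivation domain, had 3.47 and 3.64 CPM in MSC, 6.43 and 4.56 CPM in MSC+RAW, and 12.25 and 12.02 CPM in MSC+RAW-LPS. It rose 3.41-fold (log2 fold change 1.77, SE 0.24, adjusted p = 4.87e-05). Its 1501 counts over the 6 libraries stand beside 6547 of the overlapping *Ccdc85b*, so part of its level is uncertain.

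*Batf* had 23.3 and 25.2 CPM in MSC, 61.9 and 60.5 CPM in MSC+RAW, and 77.9 and 122.6 CPM in MSC+RAW-LPS. It rose 4.14-fold over MSC (log2 fold change 2.05, SE 0.20, adjusted p = 1.42e-06), and the LPS libraries differed from each other by more than the other pairs did. *Maff* had 5.45 and 7.87 CPM in MSC, 8.94 and 9.23 CPM in MSC+RAW, and 22.5 and 25.5 CPM in MSC+RAW-LPS. It rose 3.62-fold (log2 fold change 1.86, SE 0.22, adjusted p = 1.35e-05). *Atf3* had 60.9 and 68.5 CPM in MSC, 61.4 and 62.6 CPM in MSC+RAW, and 92.2 and 108 CPM in MSC+RAW-LPS. Its log2 fold change of 0.63 (SE 0.16, adjusted p = 0.00833) passed the adjusted p and not the fold limit.

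The remaining genes were not called against MSC. *Jun*, the founding member of the family, had 56.5 and 66.9 CPM in MSC, 87.5 and 84.5 CPM in MSC+RAW, and 66.7 and 75.4 CPM in MSC+RAW-LPS (log2 fold change 0.20, SE 0.16, adjusted p = 0.428). *Fos* had 12.2 and 17.4 CPM in MSC, 14.3 and 14.3 CPM in MSC+RAW, and 7.95 and 11.4 CPM in MSC+RAW-LPS (log2 fold change -0.61, SE 0.24, adjusted p = 0.0855). Both LPS libraries lay below the other 4. *Fosb* had 2.04 and 2.41 CPM in MSC, 0.489 and 1.13 CPM in MSC+RAW, and 0.360 and 1.37 CPM in MSC+RAW-LPS (log2 fold change -1.37, SE 0.58, adjusted p = 0.114). Without MSC+RAW-LPS b its log2 fold change was -2.61 (adjusted p = 0.00487), and with the library series in the column names as a block it was -1.59 (adjusted p = 0.0359). *Jund* had 26.2 and 25.4 CPM in MSC, 77.6 and 73.4 CPM in MSC+RAW, and 33.7 and 58.6 CPM in MSC+RAW-LPS (log2 fold change 0.84, SE 0.21, adjusted p = 0.00915). It was called at 1.16 without MSC+RAW-LPS a.

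**Figure D3:**
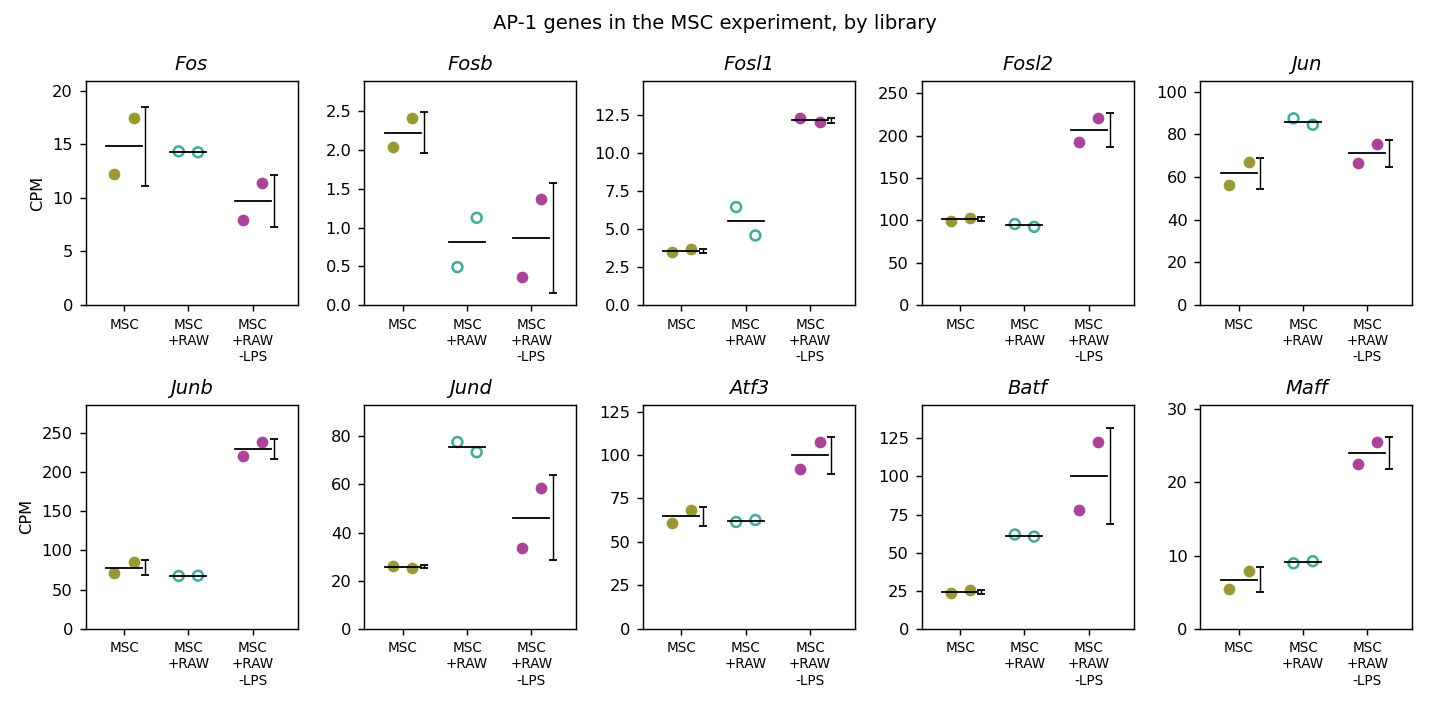
Level of the 10 AP-1 genes in CPM in each library of the MSC experiment (points), with the group mean (line) and SD (bar at the right). Open points mark the near-identical MSC+RAW libraries, whose mean counts as 1 sample; *Junb*, *Fosl1*, *Fosl2* and *Maff* are highest in both MSC+RAW-LPS libraries, and *Jund* in both MSC+RAW libraries.

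MSC+RAW-LPS was also compared with MSC+RAW, which by design differ in LPS treatment of the RAW264.7 cells. Of the 15 macrophage markers 11 were lower and 4 higher in every MSC+RAW-LPS library than in MSC+RAW. The GC trend differed too (rho -0.26 to -0.12 against 0.35 to 0.36), and the part of either in this contrast was not tested. The 3 contrasts of this experiment share samples, so they are not independent of one another. Here 4 of the 10 genes were called, all higher, against 27.4% of all genes tested and 15.4% called higher. *Junb* rose 3.34-fold (log2 fold change 1.74, SE 0.20, adjusted p = 1e-05). *Maff* rose 2.60-fold (1.38, SE 0.27, adjusted p = 0.000969), *Fosl2* 2.16-fold (1.11, SE 0.19, adjusted p = 0.000307) and *Fosl1* 2.14-fold (1.10, SE 0.29, adjusted p = 0.00737). *Fosl1* was at 0.92 without MSC+RAW b. The log2 fold changes of *Batf* (0.68, adjusted p = 0.0320), *Atf3* (0.66, adjusted p = 0.0131) and *Jund* (-0.74, adjusted p = 0.0260) passed the adjusted p below 2-fold. *Jund* was called lower at -1.19 without MSC+RAW-LPS b. *Fos* (-0.59), *Jun* (-0.30) and *Fosb* (0.11) did not pass. The median was 0.67 over the 10 genes and 0.14 over all genes.

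MSC+RAW was compared with MSC to see how MSCs co-cultured with untreated RAW264.7 cells differ from the libraries labelled as MSCs alone. *Jund* rose 2.99-fold (log2 fold change 1.58, SE 0.24, adjusted p = 0.00044) and *Batf* rose 2.57-fold (1.36, SE 0.23, adjusted p = 0.000657). These 2 were the only genes of the 10 called, against 16.4% of all genes with 6.8% called higher and 9.59% lower. The log2 fold changes of the other 8 ran from -1.48 in *Fosb* to 0.67 in *Fosl1*. *Fosb* was called lower with the library series as a block (-1.61, adjusted p = 0.0195), and without MSC+RAW b (-2.18), MSC+RAW-LPS a (-1.51) or MSC+RAW-LPS b (-1.48). The median was 0.23 over the 10 genes and -0.13 over all genes. That of the 10 genes was not computed with GC and length trends removed, where *Maff* turned to -0.087.

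GC content moved with the MSC+RAW group, whose libraries had a rho of 0.35 to 0.36 against -0.28 to -0.12 in the other 4, and the part of it in the MSC+RAW contrasts was not tested beyond the following fit. With GC and length trends removed, 0 of the 10 genes were called by edgeR between MSC+RAW and MSC, where 4 had an unadjusted p under 0.05, and DESeq2 without that removal called 2. The median of all genes was then -0.0015 in this contrast and 0.015 in MSC+RAW-LPS against MSC+RAW. *Jund* was then at 0.74 (adjusted p = 0.0324), *Batf* at 0.93 (adjusted p = 0.00809) and *Junb* at -0.93 (adjusted p = 0.00412). Between MSC+RAW-LPS and MSC+RAW, *Junb* (2.40), *Maff* (1.94), *Fosl1* (1.68), *Fosl2* (1.26) and *Batf* (1.11) were then called. Between MSC+RAW-LPS and MSC the same 5 genes were called with the trends removed as without, at 2.03 for *Batf*, 1.85 for *Maff*, 1.76 for *Fosl1*, 1.47 for *Junb* and 1.04 for *Fosl2*. In OVX against sham, *Batf* (-1.66) and *Fosb* (1.76) were both called with the trends removed.

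**Figure D4:**
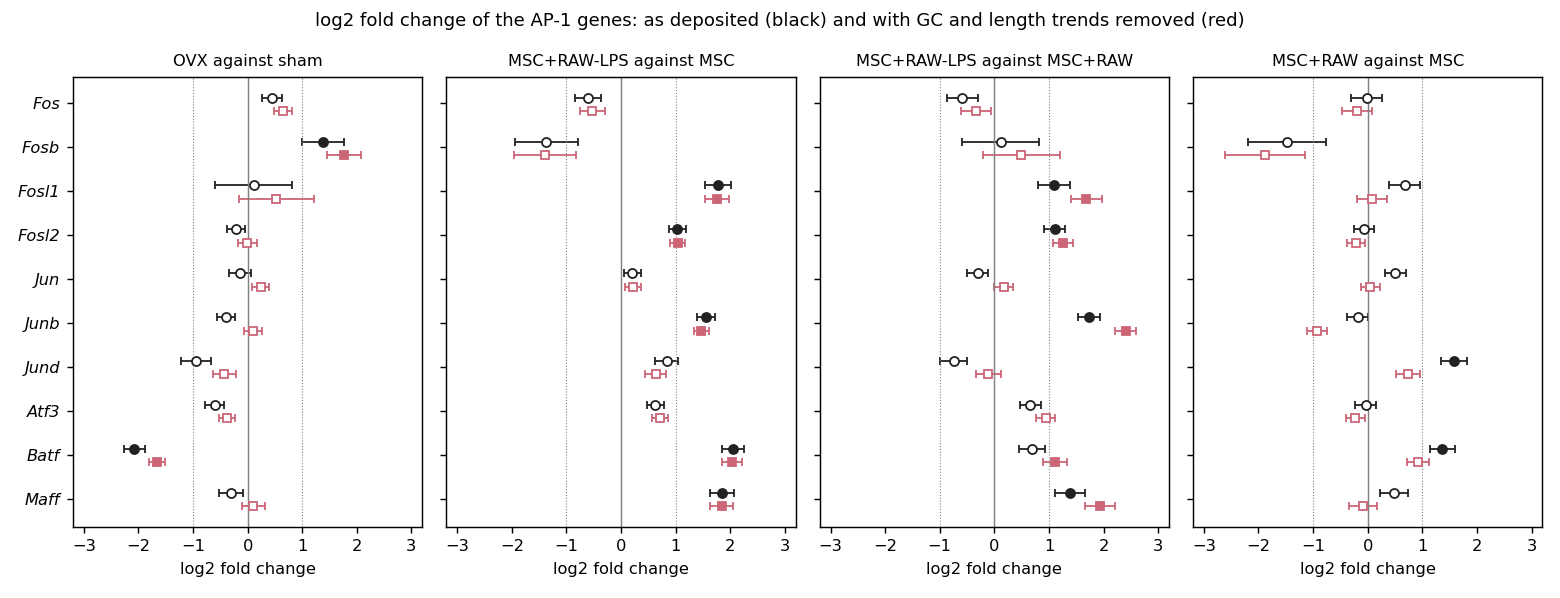
The log2 fold change of each AP-1 gene with its SE in the 4 comparisons, from the counts as deposited (black circles) and with GC and length trends removed (red squares); filled symbols were called and dotted lines mark 2-fold. On the counts as deposited *Batf* moves most in OVX against sham (-2.07) and in MSC+RAW-LPS against MSC (2.05), and *Jund* in MSC+RAW against MSC (1.58); with the trends removed *Fosb* moves most in OVX against sham (1.76) and, uncalled, in MSC+RAW against MSC (-1.88).

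Markers of cell types moved as well. The macrophage list summed to 31217 to 31391 CPM in MSC, 41167 to 41591 in MSC+RAW and 15558 to 16294 in MSC+RAW-LPS, with all 15 markers at 1 CPM or more. *Lyz2* carried most of each sum, at 21597 to 21728, 26346 to 26636 and 9155 to 9982 CPM. From MSC to MSC+RAW-LPS 10 of the 15 markers were lower in every library and 4 were higher, among them *Adgre1* (511 to 585 against 1400.3 to 1536 CPM) and *Ptprc* (167 to 171 against 209 to 228 CPM). The stromal list summed to 2923 to 3101, 2679 to 2704 and 4082 to 4133 CPM. The 8 neutrophil markers summed to 11.7 to 16.4, 31.8 to 34.6 and 370 to 555 CPM, mostly from *S100a8*, with *Elane* and *Ltf* at 0 in both LPS libraries. Their part in the AP-1 differences was not tested.

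The counts of called context genes that follow stand beside 10.9% of all genes called in MSC+RAW-LPS against MSC, 27.4% against MSC+RAW, and 16.4% between MSC+RAW and MSC. The feedback inhibitors of MAP kinases included 7 genes of 14 that rose in MSC+RAW-LPS against MSC and 1 that fell. The list had a median of 0.95. *Dusp2*, a nuclear phosphatase of ERK, had 32.1 ± 8.97 CPM (SD, n = 2) against 0.793 ± 0.207 CPM (SD, n = 2) in MSC (log2 fold change 5.31, SE 0.29, adjusted p = 2.3e-09). *Dusp16*, a phosphatase of JNK and p38, rose by 2.31 (adjusted p = 4.75e-08) and *Dusp10* by 1.62 (adjusted p = 3.47e-05). Against MSC+RAW 6 of 14 were called, all higher, and *Dusp2*, *Dusp16* and *Dusp10* had log2 fold changes of 3.43, 2.83 and 2.47. Between MSC+RAW and MSC only *Dusp2* of the list was called, at 1.87 (adjusted p = 0.000825).

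Of 22 MAP kinase cascade genes, 4 were called in MSC+RAW-LPS against MSC, all higher. *Map2k6*, a kinase of p38, rose by 2.36 (adjusted p = 6.03e-06), *Map2k1*, a kinase of ERK, by 1.49 (adjusted p = 6.98e-06), and *Map3k8*, a kinase that acts downstream of LPS, by 1.03 (adjusted p = 0.00257). The fourth was *Mapk13*, named after its values were seen, at 3.01. Against MSC+RAW 5 rose and 2 fell, and against MSC the MSC+RAW sample had 3 higher and 1 lower, both shares of the 22 genes lying near those of all genes. With the trends removed the count of 7 against MSC+RAW was 3. The latter count of 4 was 1 without MSC 2 and 2 without MSC+RAW a or MSC+RAW b. *Mapk3*, the kinase ERK1, was higher in MSC+RAW than in MSC (1.47) and lower in MSC+RAW-LPS than in MSC+RAW (-1.46). With the GC and length trends removed both changes were under 2-fold, at 0.91 and -0.91, and so were not called.

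Of 16 textbook AP-1 targets, 8 rose and 2 fell in MSC+RAW-LPS against MSC, with a median of 1.04. Matrix metalloproteinase genes led. *Mmp3* had 2138 ± 35.6 CPM (SD, n = 2) against 20.7 ± 0.699 CPM (SD, n = 2), which gave a change of 6.69 on the log2 scale (SE 0.19, adjusted p = 2.01e-12). *Mmp9* rose by 4.24 (adjusted p = 9.42e-11) and *Mmp13*, the main collagenase of bone in mice, by 3.03 (adjusted p = 2.06e-09). Against MSC+RAW 7 of 16 were called, all higher, with 6.39 for *Mmp3*, 4.07 for *Mmp9* and 3.33 for *Mmp13*. Between MSC+RAW and MSC 3 were called, all higher, among them *Tnf* (1.45) and *Acp5* (1.34). *Acp5* (2.25) and *Tnf* (2.49), named after their values were seen, also rose in MSC+RAW-LPS against MSC, and with *Mmp3* and *Mmp9* they were genes of the list that were lower in OVX than in sham BMMs.

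Of 20 other immediate-early genes, 6 rose and 2 fell in MSC+RAW-LPS against MSC, and 5 in all were called without MSC 1. *Ier3* rose by 3.15 (adjusted p = 5.13e-09) and *Gadd45b* by 2.60 (adjusted p = 7.18e-08), while *Klf2* fell by 1.46 on the log2 scale (adjusted p = 3.24e-05). Against MSC+RAW 5 rose and 3 fell, and *Ier3*, *Gadd45b* and *Klf2* had log2 fold changes of 1.60, 1.47 and -1.73. Between MSC+RAW and MSC 5 were called, all higher, with *Ier3* at 1.56, *Ccn1* at 1.13 and *Gadd45b* at 1.13, and 3 were called without MSC 1 or MSC 2.

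Of 17 other bZIP genes tested, 1 was called in MSC+RAW-LPS against MSC, and 2 without MSC+RAW-LPS b. Against MSC+RAW 2 rose and 3 fell, a share near that of all genes and 3 genes with the trends removed, with *Atf5* at -1.96 and *Nfe2l2* at 1.51. Between MSC+RAW and MSC 4 rose and 2 fell, with *Jdp2* at 1.32, *Atf4* at 1.23 and *Nfe2l2* at -1.15, and with the trends removed these 3 passed the adjusted p but were under 2-fold, at 0.81, 0.79 and -0.88. Of 10 heat shock genes 1 rose against MSC, *Hsp90aa1* (1.03). Against MSC+RAW *Hsp90aa1* rose (1.72) while *Hspb1* (-1.09) and *Hspa1a* (-1.01) fell, and between MSC+RAW and MSC *Hspb1* rose (1.18), a call that was lost with the trends removed (0.57). Against MSC+RAW *Hspb1* and *Hspa1a* lost their calls with the trends removed, and also without MSC+RAW-LPS a (-0.72 and -0.85). *Hsp90aa1* against MSC was under 2-fold without MSC 2 (0.99) or MSC+RAW-LPS a (0.93), as was *Map3k8* without MSC 1 (0.76) or MSC+RAW-LPS b (0.87). Between MSC+RAW and MSC, removing the trends changed the number of called genes from 6 to 0 among the other bZIP genes, from 4 to 1 in the MAP kinase cascade, from 5 to 1 among the immediate-early genes, from 3 to 1 among the AP-1 targets and from 1 to 0 among the heat shock genes, and from 1 to 2 among the feedback inhibitors. In that contrast *Gadd45b* was at 0.95 without MSC 2.

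To find genes with a like pattern, log2 CPM was centred within each experiment and compared over the 10 samples among 9723 genes of at least 5 CPM in both. The nearest genes to *Batf* were *Usp18*, at a root mean square difference of 0.23 log2 units, and *Slc25a10*, at 0.24, against 0.98 for the spread of *Batf* itself. *Jun* lay nearest to *Tmem11* (0.069) and *Rabepk* (0.084), with a spread of its own of 0.20. *Cd47* was among the nearest to *Atf3* (0.098), whose spread was 0.31. *Maff* lay nearest to *Tlnrd1* and *Oaf* (both 0.18), with a spread of 0.63, and *Fos* to *Plekhh2* (0.16) and *Stx17* (0.17), with a spread of 0.32.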

How the data were processed

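RNA-seq counts of 12 libraries, 6 of BMMs and 6 of the MSC experiment, were used in 5 groups. The authors purified poly(A) RNA, made directional libraries, trimmed reads with Trim Galore 0.6.7, mapped with HISAT2 2.1.0 to GRCm38 and ran featureCounts 2.0.1 over Ensembl genes, versions being those of the submitters' processing notes. The authors deposited whole-number counts of every gene in each library, without normalization or a filter. The strand setting is not given in the sources used here.

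Symbols, exon length and GC content came from GENCODE vM21 annotation of GRCm38 for 55141 of 55487 genes. Libraries of a group whose chi-square per gene over its expectation rose by less than 1.5 times from genes of low to high count were summed. Tests used edgeR 4.0.16 (R 4.3.3) with TMM, filterByExpr and the two-sided quasi-likelihood F-test, 1 fit per experiment, and Benjamini-Hochberg adjustment over all genes. Fitted fold changes come from the summed samples, and group means from library CPM with a near-identical pair averaged. The fits were tested on simulated data. Log2 CPM used a prior count of 2. Alternatives were RLE scaling, DESeq2 1.42.0, no low-count filter, no fold threshold, unsummed libraries with and without a block, lowess trends on GC and length removed (span 0.3), and each library left out. The library series in the MSC column names was added as a block after seeing the data.

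Named in each comparison are all 10 AP-1 genes and, per context list, up to 3 called genes of largest change with a mean of at least 5 CPM; others are marked. Some genes that this rule takes are not reported here. Nearest genes were the 2 of smallest difference for the first gene of each subfamily. The members and lists were chosen with earlier results of these data known. Tables were handled with python 3.11.15, pandas 2.3.3, numpy 2.4.6 and scipy 1.17.1, and figures drawn with matplotlib 3.10.9.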

Additional observations from a re-analysis of the deposited data

How the results depend on the processing

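In OVX against sham, 1419 genes were called (903 higher, 516 lower). Without a fold threshold the count was 2193, and with GC and length trends removed 590 (220 higher, 370 lower). It ran from 309 without OVX replicate 2 to 2390 without sham replicate 1, where the summed sham sample stood alone and was assumed to vary like OVX, and was 678 without OVX replicate 1. Of the AP-1 genes 2 were called, 1 with RLE scaling and 1 to 2 with a library left out (1 without OVX 1, OVX 2 or sham 3). For MSC+RAW-LPS against MSC, 2243 genes became 4286 without a fold threshold. For MSC+RAW against MSC, 3360 became 5862 without it and 2165 with trends removed, where the AP-1 count went from 2 to 0. For MSC+RAW-LPS against MSC+RAW the AP-1 count went from 4 to 7 without a fold threshold. With trends removed, uncalled log2 fold changes turned in sign for *Jun* (0.24), *Junb* (0.10) and *Maff* (0.11) in OVX against sham, *Jun* (0.17) in MSC+RAW-LPS against MSC+RAW, and *Maff* (-0.087) in MSC+RAW against MSC. With libraries left out, others turned in sign, at -0.50 to 0.43 for *Fosl1* in OVX against sham, -1.13 to 0.82 for *Fosb* in MSC+RAW-LPS against MSC+RAW, and -0.26 to 0.25 for *Fos* and -0.12 to 0.051 for *Atf3* in MSC+RAW against MSC. The cause was not tested beyond what each fit leaves out. *Batf* stayed called in OVX against sham (-2.24 to -1.66) and in MSC+RAW-LPS against MSC (1.69 to 2.32) under every alternative run.

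Whether the replicate numbers pair the BMM samples was not settled. Deviations of same-numbered OVX and sham libraries correlated at 0.36, -0.01 and 0.31. OVX 1 and OVX 3 correlated best with their own number and OVX 2 did not, and sham 2 and sham 3 are near-identical. In the column names OVX 2 and sham 2 carry numbers of another series than the remaining BMM libraries. No block for this series was fitted. With the 6 libraries as separate samples 1818 genes and 3 AP-1 genes were called, *Jund* being added (-1.02, adjusted p = 0.0173). With the replicate number as a block besides, 2117 genes and 3 AP-1 genes were called (*Jund* -1.04, adjusted p = 0.000346). In the MSC experiment the replicate number could not serve as a block, because the MSC+RAW and MSC+RAW-LPS columns carry no numbers that match the labels. With the library series in the column names as the block instead, also with 6 separate libraries, *Fosb* was added to the calls in MSC+RAW-LPS against MSC (-1.59, adjusted p = 0.0359) and in MSC+RAW against MSC (-1.61, adjusted p = 0.0195). Depth limits *Fosl1* in BMMs, with 38 counts in OVX and 25 in sham, and *Fosb* in the MSC experiment, with 59 counts in MSC+RAW and 55 in MSC+RAW-LPS.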
